A study of Mus musculus with 12 samples.

Results

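Csf1r, its ligands Csf1 and Il34, and the transcription factors Spi1, Irf8 and Runx1 were followed in the cortex of E4FAD mice given the fatty acid DPAn-6 or vehicle. The 6 genes were chosen by name, for their place in the colony-stimulating factor 1 receptor pathway and in the myeloid lineage. Earlier results of these data were known when they were chosen. They are 6 of the 50563 genes in the count table, and all 6 were among the 15688 genes with enough counts to be tested. Poly(A) RNA of the brain cortex was sequenced, with 1 library per mouse. E4FAD mice carry human APOE4 in place of mouse Apoe and the human familial Alzheimer's disease transgenes of the 5xFAD line, which neurons express from the Thy1 promoter. All 12 mice had the genotype given as APOE4+/+, 5FAD-/+, so no mouse without the transgenes or with another APOE allele entered the comparison. The 7 CTRL mice received vehicle by oral gavage, 2 of them aged 12 months and 5 aged 14 months. The 5 DPAn-6 mice received n-6 docosapentaenoic acid by the same daily route, 2 aged 12 months and 3 aged 14 months. Antioxidants that protect the fatty acid were given to both groups, and the sex of single mice was not in the labels.

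Csf1r is the receptor tyrosine kinase on which microglia, the resident macrophages of the brain, depend for survival and proliferation. Csf1 and Il34 both activate it, and in the cortex Il34 is made mainly by neurons while Csf1 comes mainly from glia. Spi1 encodes PU.1, the factor that sets the myeloid programme and drives Csf1r transcription. Irf8 is a partner of PU.1 required for a normal microglial state, and Runx1 acts early in haematopoiesis, when the precursors of microglia arise.

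RefSeq promoter windows, running from 250 bases before to 50 bases after a start site (GRCm38.p6), were at hand for 3 of the 6 genes: 1 for Csf1, 2 for Irf8 and 2 for Runx1. The upstream 250 bases of Csf1 and of the first Irf8 window are shown because the levels of these genes were related across the 12 mice (Pearson r = 0.79). The capitals in Irf8 mark TATAAA, which lies at positions -31 to -26 from the start. The Runx1 stretch, from 21 to 50 bases after the first of its start sites, is shown because its capitals mark ACCACA, the reverse complement of TGTGGT, the letters that RUNX factors bind, at positions 29 to 34 and again at 37 to 42, counted from 1 at the start site.
Csf1 upstream, chr3:107760470-107760719, minus strand: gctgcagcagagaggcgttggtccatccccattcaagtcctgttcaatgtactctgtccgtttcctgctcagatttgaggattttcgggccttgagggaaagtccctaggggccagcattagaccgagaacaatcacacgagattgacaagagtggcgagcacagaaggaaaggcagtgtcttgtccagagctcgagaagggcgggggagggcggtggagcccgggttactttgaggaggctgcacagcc
Irf8 upstream, chr8:120736108-120736357, plus strand: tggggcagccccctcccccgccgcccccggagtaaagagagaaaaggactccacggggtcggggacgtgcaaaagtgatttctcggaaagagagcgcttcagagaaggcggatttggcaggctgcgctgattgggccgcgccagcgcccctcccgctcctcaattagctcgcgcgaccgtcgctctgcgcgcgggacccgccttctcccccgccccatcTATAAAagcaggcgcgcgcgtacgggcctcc
Runx1 after the start, chr16:92826025-92826054, minus strand: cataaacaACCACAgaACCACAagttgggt
Both strands of all 5 windows were searched for TGTGGT, for the PU.1 letters GAGGAAGT, for their ETS core GAGGAA, for the interferon response repeat (GAAA, any 2 bases, GAAA) and for TATAAA. Of the 32851 RefSeq promoter windows in the table, 16.8% hold TGTGGT, 3.20% GAGGAAGT, 28.3% GAGGAA, 3.44% the GAAA repeat and 13.6% TATAAA. The Csf1 window held none of these letters. The only other match was GAGGAA on the minus strand of the second Runx1 window, at positions -46 to -41. A match is a description of the letters in the window and says nothing of binding in these mice.

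The genes lie on different chromosomes of GRCm38 except for Il34 and Irf8, which share chromosome 8. Csf1r (ENSMUSG00000024621) spans chr18:61100598-61132149 on the plus strand, Csf1 (ENSMUSG00000014599) spans chr3:107741048-107760469 on the minus strand and Il34 (ENSMUSG00000031750) spans chr8:110741829-110805924 on the minus strand. Spi1 (ENSMUSG00000002111) spans chr2:91082390-91115756 on the plus strand, Irf8 (ENSMUSG00000041515) spans chr8:120736358-120756694 on the plus strand and Runx1 (ENSMUSG00000022952) spans chr16:92601466-92826149 on the minus strand. The 3′ end of Csf1r overlaps Hmgxb3, a gene on the opposite strand, over 873 exon bases. Hmgxb3 had 633 to 1655 counts per library and a log2 fold change of 0.05 (SE 0.10, edgeR adjusted p = 0.868). Antisense genes share 22 and 75 exon bases with Il34 and 106 with Runx1, and none of them exceeded 12 counts in a library. Whether the counting used strand is not stated in the sources used here, and reads in these shared bases cannot be assigned to either gene.

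Counted reads ranged from 15339098 to 19500154 per library in CTRL and from 15208803 to 26520251 in DPAn-6. Levels are given as log2 CPM, the log2 of counts scaled to the library total with 0.5 added to each count. CTRL replicate 3 stood apart from the other libraries by transcript length. The median deviation from the group mean over the 1566 genes with the longest transcripts, less that over the 1567 with the shortest, was 0.56 log2 units in this library and ran from -0.20 to 0.15 in the other 11. Markers of the choroid plexus also differed among libraries: Ttr, the transthyretin gene, ran from 2.59 to 10.6 log2 CPM in CTRL and from 0.87 to 3.88 in DPAn-6 (two-sided exact permutation p = 0.0189). Leaving out CTRL replicate 3 raised the share of all genes called by edgeR from 1.55% to 6.1% (953 genes), with 3.98% lower and 2.12% higher in DPAn-6, so counts of calls without this library stand against that larger background.

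The level of microglial RNA in the libraries was followed with 16 microglial markers, all of which were detected and tested. The markers do not show which cells the RNA of the 6 genes came from. Their mean level ran from 5.49 to 6.06 log2 CPM in CTRL and from 4.96 to 5.46 in DPAn-6, so the groups did not overlap. The mean was 5.78 ± 0.19 log2 CPM among CTRL mice and 5.29 ± 0.20 among DPAn-6 mice (SD, n = 7 and 5), a difference of -0.49 (two-sided exact permutation p = 0.00253). The fitted log2 fold changes of the 16 markers ran from -1.19 to -0.05, so the mean does not stand for every marker. In bulk cortex, fewer microglia, less RNA per microglial cell and changes of single marker genes cannot be told apart. That these markers were lower was known from earlier results of the same libraries, so their level is context and not independent evidence.

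Csf1r was the most abundant of the 6 genes per unit of transcript length and the only one that fell after adjustment over all genes. CTRL libraries ran from 7.67 to 8.38 log2 CPM with a median of 8.05. The 5 DPAn-6 libraries had 7.59, 7.69, 7.34, 7.46 and 7.73 log2 CPM. All 5 lay below the CTRL mean and 3 lay below every CTRL mouse, while the remaining pair exceeded CTRL replicate 3 alone. The fitted log2 fold change was -0.50 (SE 0.10, edgeR quasi-likelihood test, Benjamini-Hochberg adjusted p = 0.0282), so that the level fell by 29.1%. Mean log2 CPM was 8.03 in CTRL and 7.56 in DPAn-6, and the two-sided exact permutation p of that difference was 0.00505, where 0.00126 is the smallest the design allows. Of the 6 genes 1 was called, beside 1.55% of all genes tested, with 1.14% of all genes called lower and 0.408% called higher in DPAn-6.

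The call for Csf1r depended on which mice were included. Without CTRL replicate 3 the log2 fold change was -0.54 (edgeR adjusted p = 0.00234), and without DPAn-6 replicate 3, the lowest library, it was -0.44 with an edgeR adjusted p of 0.106. Leaving out CTRL replicate 2, 4 or 6 or DPAn-6 replicate 1, 2 or 4 gave edgeR adjusted p values from 0.0507 to 0.0964, with the difference still between -0.46 and -0.52. With Ttr as a covariate the log2 fold change was -0.57 (edgeR adjusted p = 0.170).

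**Figure D1:**
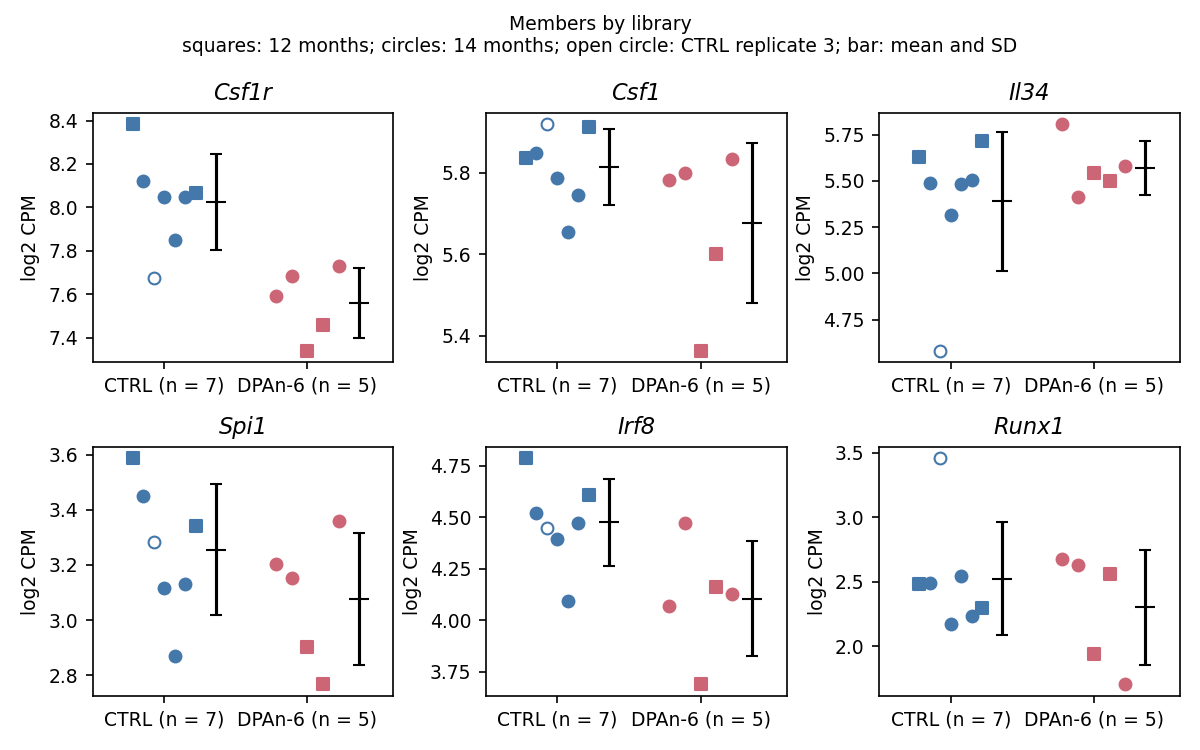
Levels of the 6 genes in each library (vertical axes: log2 CPM) for 7 CTRL and 5 DPAn-6 mice; squares are 12-month and circles 14-month mice, the open circle is CTRL replicate 3, and bars give the mean and SD. Csf1r is the only gene with an edgeR adjusted p below 0.05 (0.0282), and no gene separates the groups fully; CTRL replicate 3 is the lowest Il34 value (4.58) and the highest Runx1 value (3.46).

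Neither ligand passed the test. Csf1 ran from 5.65 to 5.92 log2 CPM in CTRL with a median of 5.84, and the DPAn-6 libraries had 5.78, 5.80, 5.36, 5.60 and 5.83. Both DPAn-6 mice aged 12 months were outside the CTRL range on its low side, and those aged 14 months lay inside the CTRL range. Csf1 had a log2 fold change of -0.16 (SE 0.09, interval of 2 SE -0.33 to 0.02, edgeR adjusted p = 0.438), which was -0.08 without DPAn-6 replicate 3.

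Il34 was the only one of the 6 genes with a fitted difference above 0. Its CTRL libraries ran from 4.58 to 5.72 log2 CPM with a median of 5.49, and the DPAn-6 libraries had 5.81, 5.41, 5.55, 5.50 and 5.58. The low value of 4.58 was CTRL replicate 3, and the next CTRL mouse was at 5.32. The log2 fold change was 0.13 (SE 0.14, interval of 2 SE -0.15 to 0.41, edgeR adjusted p = 0.750), and it was 0.12 once the dependence on transcript length and GC was taken out of each library. It was 0.03 without CTRL replicate 3, 0.07 without DPAn-6 replicate 1 and 0.04 with Ttr as a covariate. The groups overlapped, with 1 DPAn-6 mouse above every CTRL mouse, and the interval holds both lower and higher levels.

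Irf8 had the largest fitted difference of the 3 factors. CTRL mice ran from 4.09 to 4.79 log2 CPM with a median of 4.47, and DPAn-6 mice had 4.07, 4.47, 3.69, 4.16 and 4.13. DPAn-6 replicate 2 lay at the CTRL mean, the other 4 lay below it and 2 lay below every CTRL mouse. Its log2 fold change of -0.39 (SE 0.13) had an unadjusted edgeR p of 0.00949 and an adjusted p of 0.166, and thus did not pass over all genes. The two-sided exact permutation p was 0.0316, a value below 0.05 as for 15.8% of all genes tested, and without DPAn-6 replicate 1, 3 or 5 it was 0.0606, 0.0818 and 0.0515.

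Spi1 was read at 103 to 272 counts per library. CTRL mice ran from 2.87 to 3.59 log2 CPM with a median of 3.28, and DPAn-6 mice had 3.20, 3.15, 2.90, 2.77 and 3.36. Only 1 DPAn-6 mouse, replicate 4, lay below every CTRL mouse. The log2 fold change was -0.20 (SE 0.14, interval of 2 SE -0.47 to 0.07, edgeR adjusted p = 0.560), and -0.12 without DPAn-6 replicate 4.

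Runx1 had the fewest reads, from 76 to 168 counts per library. CTRL mice ran from 2.17 to 3.46 log2 CPM with a median of 2.48, and DPAn-6 mice had 2.67, 2.63, 1.94, 2.56 and 1.71. The highest value was CTRL replicate 3, with the next CTRL mouse at 2.54, and 2 DPAn-6 mice were lower than all CTRL mice while the other 3 lay above the CTRL median. Runx1 had a log2 fold change of -0.27 (SE 0.24, edgeR adjusted p = 0.686), which was -0.05 without CTRL replicate 3, -0.13 without DPAn-6 replicate 5, -0.13 with Ttr as a covariate and -0.20 once the length and GC trend was removed. Across the 6 genes, 5 had a fitted difference below 0, as did 51.3% of all genes tested, and 2 had an unadjusted edgeR p below 0.05, as did 14.5% of all genes. In none of the 6 did the groups separate fully, which they did in 1.49% of all genes with DPAn-6 lower and in 1.73% with DPAn-6 higher.

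**Figure D2:**
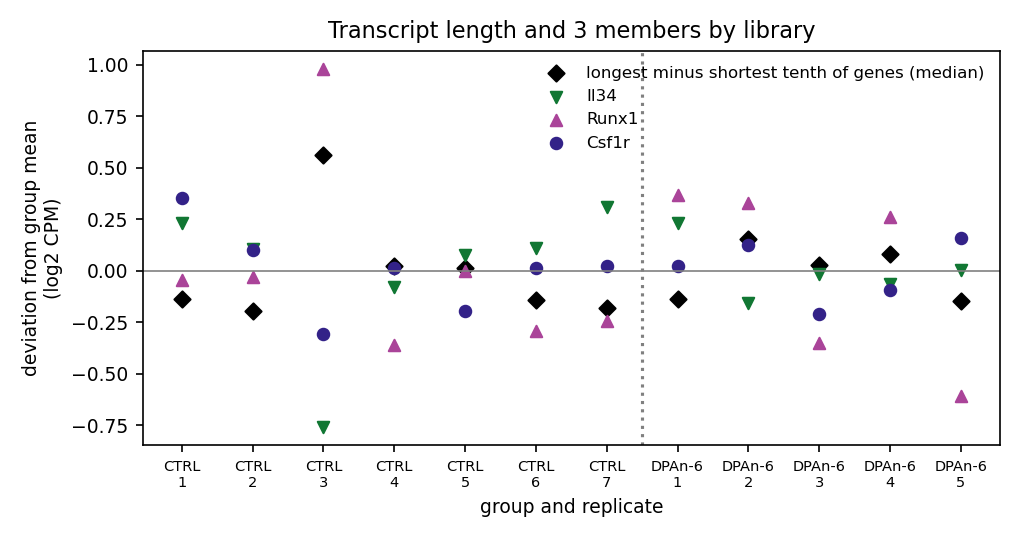
Deviation from the group mean (vertical axis, log2 CPM) in each of the 12 libraries for Csf1r, Il34, Runx1 and for the 1566 genes with the longest transcripts less the 1567 with the shortest (black diamonds, medians over genes). In CTRL replicate 3 the length difference is 0.56, Runx1 is 0.98 above and Il34 0.76 below its group mean.

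In CTRL replicate 3, the high Runx1 and low Il34 values came together with the length difference. The longest annotated transcript of Runx1 has 5861 bases and that of Il34 has 1796, while that of Csf1r has 4701. Over the genes tested, the 1567 with transcripts of up to 1359 bases had a median log2 fold change of 0.03, against -0.11 in the 1566 with transcripts of 6779 bases or more. The part of transcript length in the Runx1 and Il34 values was not tested beyond the trend removal given above.

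Levels of the genes were compared with each other only per length, as FPKM, the counts per kilobase of merged exons scaled to the library total. Csf1r led with 45.6 ± 6.99 FPKM in CTRL and 32.9 ± 3.61 in DPAn-6 (SD, n = 7 and 5), above 93.5% of the genes tested. Il34 followed with 21.9 ± 4.74 and 24.3 ± 2.57, and Csf1 with 10.7 ± 0.69 and 9.75 ± 1.26. The ligand attributed to neurons was thus measured at a higher level per length of merged exons than Csf1 in both groups. Their ranges did not overlap, but in CTRL the lowest Il34 value (12.2) lay close to the highest Csf1 value (11.5). Merged exons have 1959 bases in Il34 and 5281 in Csf1, and the longest transcripts have 1796 and 4176. Scaling by longest transcript raises Csf1 more than Il34, so the CTRL ranges need not stay apart by that length. The separation given here therefore holds for merged exons only, and values by longest transcript were not computed. Spi1 (3.57 ± 0.58 and 3.15 ± 0.52) and Irf8 (3.17 ± 0.46 and 2.47 ± 0.47) had overlapping ranges in both groups. Within a library Spi1 was the higher in all 7 CTRL mice and in 4 of 5 DPAn-6 mice. That order depends on the length used, since the merged exons of Irf8 have 7055 bases and its longest transcript has 3469. For Spi1 these lengths are 2695 and 2034, so scaling by longest transcript raises Irf8 more than Spi1 and can turn the order. The order given here therefore holds for merged exons only, and values by longest transcript were not computed. Runx1, at 0.50 ± 0.19 and 0.42 ± 0.12, came last and lay above only 10.2% of the genes tested.

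Each gene was also expressed relative to the microglial markers. The mean log2 CPM of the 16 markers in the same library was subtracted, and 6 genes were compared by two-sided exact permutation tests without adjustment. Csf1r lay above the markers by 2.25 in CTRL and 2.27 in DPAn-6, a difference of 0.02 (exact permutation p = 0.845) whose sign turned when CTRL replicate 3 was left out (-0.04). Irf8 was 0.12 higher relative to the markers (exact permutation p = 0.207) and Runx1 0.27 higher (exact permutation p = 0.338). Csf1 was 0.35 higher (exact permutation p = 0.00253), with 0.24 as the highest CTRL value and 0.34 as the lowest DPAn-6 value. Il34 was 0.67 higher (exact permutation p = 0.00884) and Spi1 0.31 higher (exact permutation p = 0.0114), both with overlapping groups.

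These relative differences contain the lower marker mean of -0.49, so a gene whose own level did not move appears higher by that amount. Of all genes tested, 71% were higher relative to the markers with an exact permutation p below 0.05, and in 25.7% the DPAn-6 mice lay above all CTRL mice. The 3 of 6 genes past that p, and Csf1 with its separate groups, are therefore read against that background and are no result about Csf1, Il34 or Spi1. With the marker mean as a covariate in the edgeR fit, the log2 fold change of Csf1r was -0.15 (unadjusted p = 0.275), and the unadjusted p of the other 5 genes ran from 0.257 to 0.761. No gene of the whole table was called in that fit. The marker mean did not overlap between the groups, so the fit can hardly tell treatment and marker level apart.

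**Figure D3:**
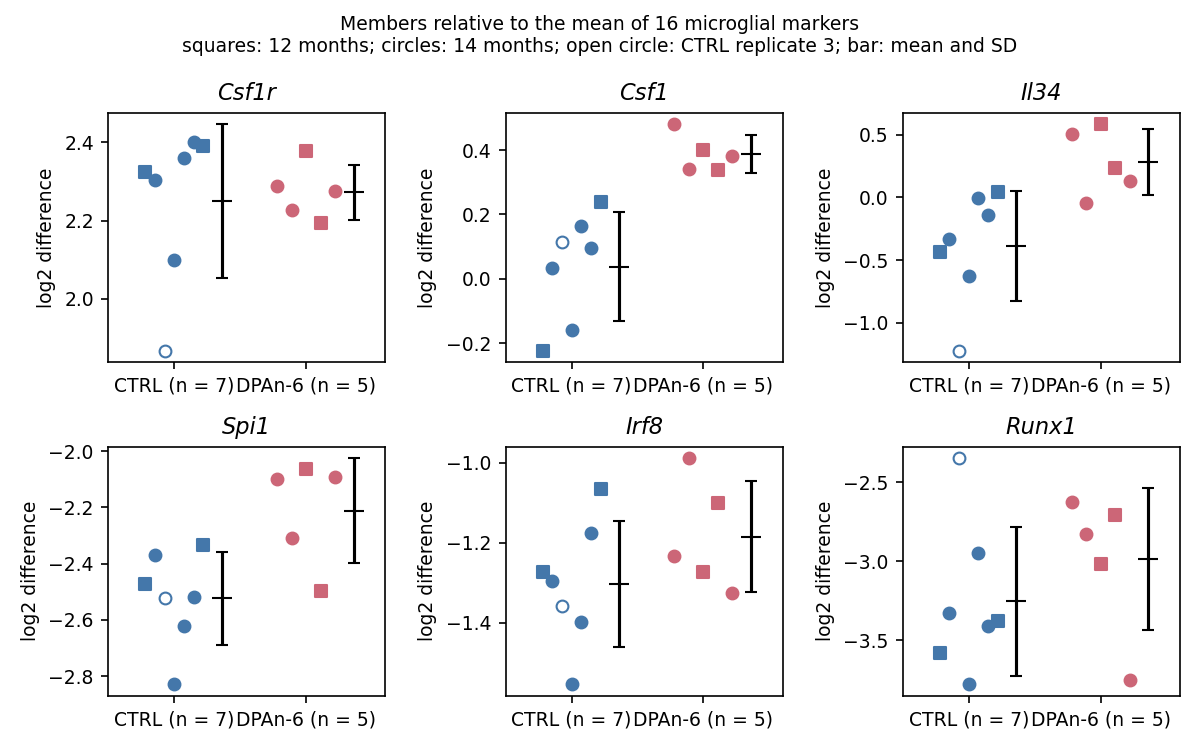
Level of each gene less the mean of 16 microglial markers of the same library (vertical axes, log2 difference), for 7 CTRL and 5 DPAn-6 mice; squares are 12-month and circles 14-month mice, the open circle is CTRL replicate 3, and bars give the mean and SD. Csf1r has mean values of 2.25 and 2.27, and Csf1 is the gene whose groups do not overlap.

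The mean difference of Csf1r, Csf1, Spi1 and Irf8 was further below 0 in the mice aged 12 months than in those aged 14 months. At 12 months Csf1r was 8.38 and 8.06 log2 CPM in the 2 CTRL mice and 7.34 and 7.46 in the 2 DPAn-6 mice, a mean difference of -0.82. At 14 months the mean was 7.95 in 5 CTRL mice and 7.67 in 3 DPAn-6 mice, a difference of -0.28 (two-sided exact permutation p = 0.0714). At 12 months both DPAn-6 mice lay below both CTRL mice for every gene but Runx1, a split whose exact permutation p cannot go below 0.333. The share of all genes with such a split was not counted, so it is no result about these genes. Irf8 differed by -0.77 at 12 months and -0.16 at 14 months, and Spi1 by -0.63 and 0.07. Csf1 differed by -0.39 and 0.01, Il34 by -0.15 and 0.32 and Runx1 by -0.14 and -0.24.

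The change of the treatment difference with age was tested as an interaction in edgeR. Unadjusted p was 0.0147 for Csf1r (interaction 0.52 on the log2 scale, 14 months less 12 months), 0.0173 for Spi1 (0.67), 0.0349 for Csf1 (0.37) and 0.0386 for Irf8 (0.57), and 0.165 for Il34 and 0.742 for Runx1. Thus 4 of the 6 genes had an unadjusted p below 0.05, as did 4.26% of all genes tested. The mean of the 16 microglial markers moved with age as well, with a difference of -0.75 log2 CPM at 12 months and -0.34 at 14 months, and its part in these values was not tested. After adjustment over all genes none of the 6 passed (edgeR adjusted p = 0.905 for 5 genes and 0.952 for Runx1), and 1 gene of the table did (0.00637%). With 2 mice per group at 12 months, these values rest on 4 libraries, and the genes varied together across mice, so the 4 are not separate observations.

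**Figure D4:**
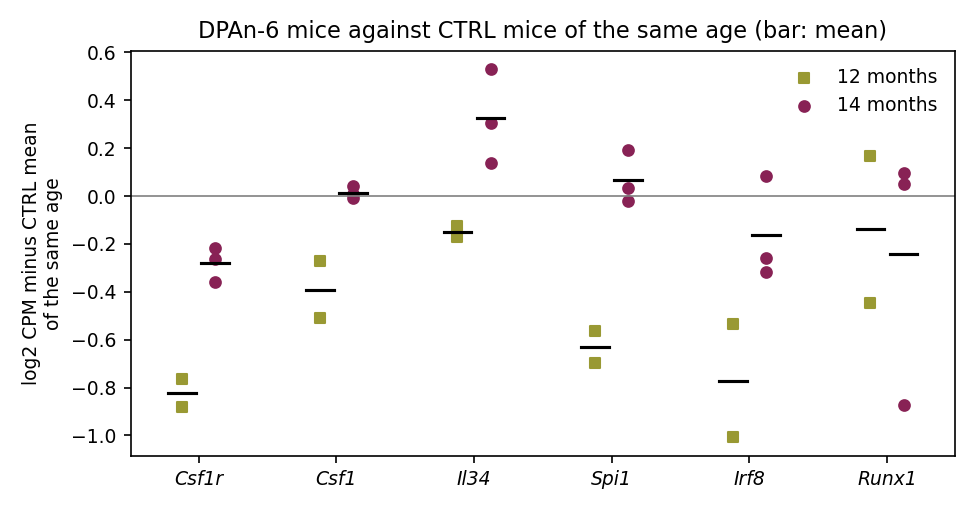
DPAn-6 mice against the CTRL mean of the same age for the 6 genes (vertical axis, difference in log2 CPM); squares are the 2 mice aged 12 months, circles the 3 aged 14 months, and bars their means. For Csf1r both ages lie below 0 (means -0.82 and -0.28), while the means of Csf1 (0.01) and Spi1 (0.07) at 14 months lie beside 0.

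Over the 12 libraries, 5 of the 15 pairs of genes passed after adjustment by Pearson r. All of them lay among Csf1r, Csf1, Spi1 and Irf8, and no pair with Il34 or Runx1 passed. The pair of Csf1r and Csf1 did not pass either (r = 0.60, adjusted permutation p = 0.0866). By Spearman rho only Csf1r with Irf8 and Csf1 with Spi1 passed (adjusted permutation p = 0.0163 for both). Csf1r with Irf8 had the highest Pearson r (0.83, permutation p = 0.00089, adjusted over 15 pairs 0.0133), with Spearman rho = 0.81 (permutation p = 0.00217). Csf1 with Spi1 had the highest rho (0.83, permutation p = 0.00186), with r = 0.76 (permutation p = 0.0027), which was 0.74 when the 2 most extreme mice by Csf1 level were left out. For Csf1r with Irf8, r was 0.63 without the 2 most extreme mice by Csf1r level. Csf1 and Irf8 had r = 0.79 (permutation p = 0.00272, adjusted 0.0136), which was 0.52 when the 2 most extreme mice by Csf1 level were left out, and their rho was 0.67 (permutation p = 0.0198). Since a difference between the groups adds to such values, each group was also centred on its own mean.

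After centring, 5 pairs had an unadjusted permutation p below 0.05 and none passed over the 15 pairs by Pearson r. These were Csf1r with Spi1 (r = 0.68, rho = 0.83) and with Irf8 (r = 0.68, rho = 0.71), Csf1 with Spi1 (r = 0.71, rho = 0.72) and with Irf8 (r = 0.72, rho = 0.47), and Spi1 with Irf8 (r = 0.64, rho = 0.54), with adjusted permutation p from 0.0817 to 0.102. Leaving out the 2 most extreme mice, the centred r of Csf1 with Irf8 was 0.21, and that of the other 4 pairs ran from 0.63 to 0.85. By rho the pair of Csf1r and Spi1 passed (adjusted permutation p = 0.0498). Without CTRL replicate 3, 5 centred pairs passed, among them Csf1r with Csf1 (r = 0.76), Spi1 (r = 0.89) and Irf8 (r = 0.83).

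The genes whose centred levels were most like each of the 6 differed by gene, as a description over 12 libraries with no test. For Csf1r they were the lysosomal cholesterol carrier Npc2 (r = 0.97), the integrin subunit Itgb5 (r = 0.96) and the lysosomal protease Ctsz (r = 0.95). For Spi1 they were the transcription factor Stat3 (r = 0.93), the secreted chaperone Clu (r = 0.93) and Sugct (r = 0.92), and for Irf8 the protease Capn3 (r = 0.92), the receptor Lrp4 (r = 0.91) and Parp12 (r = 0.90). Csf1 was closest to Ly9 (r = 0.96), the interferon-induced Usp18 (r = 0.94) and Fblim1 (r = 0.94). Il34 was closest to Tspan14 (r = 0.99), Stard3 (r = 0.99) and Pcbp1 (r = 0.98), and Runx1 to D630045J12Rik (r = 0.94), the sialic acid receptor Cd33 (r = 0.92) and Ccdc6 (r = 0.92). CTRL replicate 3, with its shift by transcript length, is 1 of the 12 points behind each of these values. It had the largest deviation from the group mean of all libraries for Il34 (-0.76 log2 CPM) and Runx1 (0.98). How far the r values rest on this library was not tested, and the genes were picked as the highest among all genes tested.

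Among other binding partners of IL-34 none of 3 passed the test, and all 3 had a fitted difference below 0, beside 51.3% of all genes. The values were -0.50 for the lipid receptor Trem2 (edgeR adjusted p = 0.142), -0.33 for the receptor phosphatase Ptprz1 (edgeR adjusted p = 0.328) and -0.35 for the syndecan Sdc1 (edgeR adjusted p = 0.719), which had 5 to 18 counts. Of 11 other colony-stimulating factors and class III receptor kinases, 9 were tested and none was called. The lowest p values belonged to the G-CSF receptor Csf3r (-0.42, edgeR adjusted p = 0.119), the shared beta chain Csf2rb (-0.47, edgeR adjusted p = 0.162) and Pdgfra (-0.22, edgeR adjusted p = 0.173), a marker of oligodendrocyte precursors. The median log2 fold change of this list was -0.19, against -0.0047 over all genes tested. Without CTRL replicate 3, 2 of the 9 and 1 of the 3 partners were called lower, in a fit that called 3.98% of all genes lower.

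Of 25 genes of signalling downstream of Csf1r, 24 were tested, 21 had a difference below 0 and 1 passed. This was Inpp5d, the phosphatase SHIP1 that opposes PI3 kinase, at 5.40 ± 0.22 log2 CPM in CTRL and 4.96 ± 0.18 in DPAn-6 (log2 fold change -0.47, edgeR adjusted p = 0.0484). It missed the threshold under limma-voom (adjusted p = 0.0544). Of all genes tested, 51.3% had a difference below 0 and 1.14% were called lower. The median of the list was -0.16. Without CTRL replicate 3 there were 3 calls lower and 1 higher, beside 3.98% and 2.12% of all genes.

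Of 38 other myeloid transcription factors, 32 were tested, 26 had a difference below 0 and 1 passed. Bhlhe41, a repressor of the basic helix-loop-helix family, was 6.12 ± 0.15 log2 CPM in CTRL and 5.66 ± 0.12 in DPAn-6 (log2 fold change -0.48, edgeR adjusted p = 0.0134). The same shares of all genes, 51.3% below 0 and 1.14% called lower, stand beside this list. Its median was -0.14, and 4 of 31 tested factors were called lower without CTRL replicate 3, beside 3.98% of all genes.

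All 16 textbook targets of PU.1 were tested, 14 had a difference below 0 and 1 passed. Ncf1, the p47phox subunit of the phagocyte oxidase, was 4.53 ± 0.18 log2 CPM in CTRL and 3.88 ± 0.11 in DPAn-6 (log2 fold change -0.68, edgeR adjusted p = 0.00336). Over all genes tested, 51.3% lay below 0 and 1.14% were called lower. The list median was -0.38, and 5 of the 16 were called lower without CTRL replicate 3, beside 3.98% of all genes. Itgam and Ctss on this list are also microglial markers, and Csf2ra and Csf3r also belong to the receptors above.

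Of the 16 microglial markers 4 were called lower, beside 1.14% of all genes tested, and none higher. All 16 had a difference below 0, beside 51.3% of all genes, with a median of -0.46. The complement genes C1qb and C1qc had log2 fold changes of -1.02 (edgeR adjusted p = 0.0430) and -0.97 (edgeR adjusted p = 0.0389), Tmem119, a microglial surface protein, -0.77 (edgeR adjusted p = 0.0286) and the secreted Olfml3 -1.19 (edgeR adjusted p = 0.000500). Csf1r, at -0.50, thus lay near the median of the list. Without CTRL replicate 3, 8 of the 16 were called lower, without DPAn-6 replicate 3, 1, and in the 14-month mice alone, none. These fits called 953, 64 and 9 genes of the whole table, so the marker counts stand against unlike backgrounds.

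Macrophages at the borders of the brain also express Csf1r. Of their 10 markers 7 were tested, with a median of -0.92, and 3 were called lower, beside 1.14% of all genes. These 3 were Mrc1 (-1.29, edgeR adjusted p = 0.00260), Cd163 (-1.29, edgeR adjusted p = 0.0292) and F13a1 (-1.36, edgeR adjusted p = 0.00850). The summed level of the 10 markers ran from 35.9 to 54.6 CPM in CTRL and from 24.5 to 34.3 in DPAn-6. For the microglial markers it ran from 1168 to 1749 and from 805 to 1166. Their part in the Csf1r difference was not tested. Blood monocytes and neutrophils were near absent, since none of their 8 markers was tested and their sum ran from 0.34 to 3.91 CPM in CTRL and from 0.26 to 0.87 in DPAn-6. Of 8 lymphocyte markers 1 was tested and it was not called.

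None of the markers of neurons (9 tested, median 0.11), astrocytes (8, -0.11), oligodendrocytes (8, 0.27) or endothelium (6, -0.11) was called in either direction, while 5 of the 8 oligodendrocyte markers were higher at an unadjusted edgeR p below 0.05. Without CTRL replicate 3, 1 neuronal and 1 oligodendrocyte marker were called higher, beside 2.12% of all genes. Without the same library, 1 astrocyte and 2 choroid plexus markers were called lower, beside 3.98% of all genes. The choroid plexus markers had no call among 6 tested, with a median of -2.56, and their sum ran from 14.3 to 1696 CPM in CTRL and from 9.47 to 26.6 in DPAn-6. The part of the choroid plexus RNA in the differences of the 6 genes was examined only with Ttr as a covariate. In that fit, with 17 genes called in all, none of the pathway genes named above was called. Among the markers, 1 microglial and 1 border macrophage marker passed the threshold there. In the 14-month mice alone no pathway gene and 1 border macrophage marker passed, with 9 genes called in all. Without DPAn-6 replicate 3, with 64 genes called in all, 1 PU.1 target was called and no gene of the other pathway lists.

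**Figure D5:**
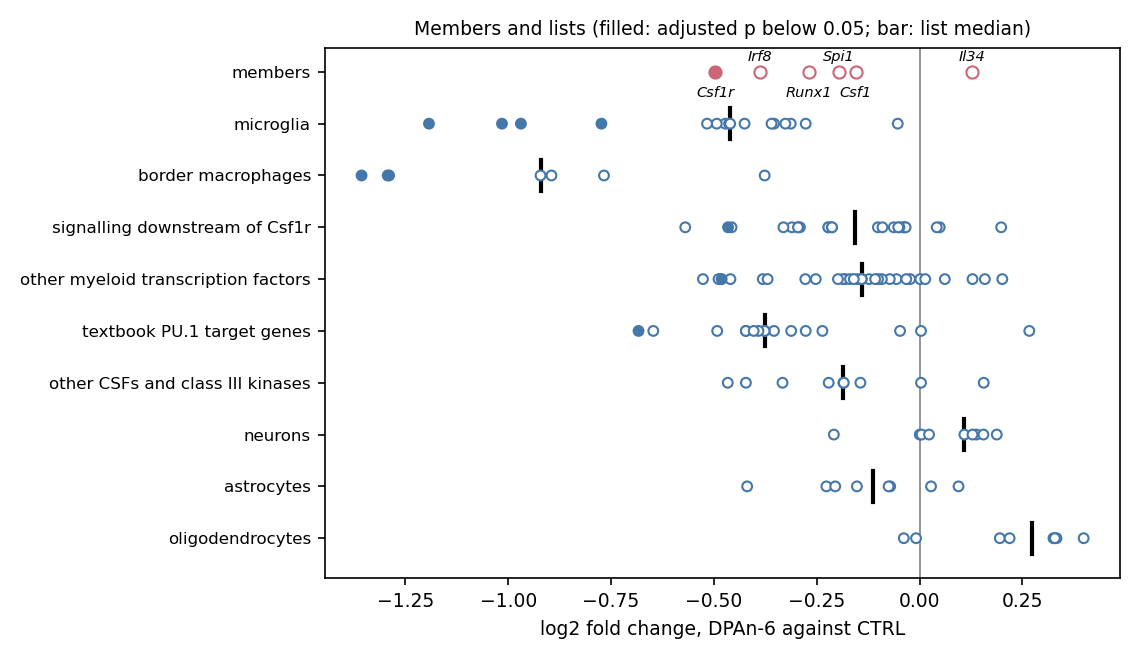
Fitted log2 fold change of DPAn-6 against CTRL (horizontal axis) for the 6 genes and for genes of 9 lists (rows); filled points have an edgeR adjusted p below 0.05 and black bars are list medians. Csf1r (-0.50) lies beside the median of the microglial markers (-0.46), and the median of the border macrophage markers is the lowest of the 9 lists drawn (-0.92), which leave out the choroid plexus.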

How the data were processed

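Poly(A) RNA from the cortex of 12 E4FAD mice was sequenced by the authors. Per the labels and the study's methods, they aligned the reads to GRCm38 with STAR 2.5.3a against an Ensembl annotation, and the deposited values are STAR's raw counts per gene, not normalized. The table lists 50563 genes. Counts above 0 were present for 30214 of them, and 50339 identifiers matched GENCODE M21, used here for positions, lengths and overlaps.

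The 7 CTRL and 5 DPAn-6 libraries were grouped by their labels. Counts were fitted in edgeR 4.0.16 (R 4.3.3) with TMM factors, filterByExpr and the quasi-likelihood test, without covariates. Adjusted p values follow Benjamini and Hochberg over all 15688 genes tested, with a threshold of 0.05. Single values were compared by two-sided exact permutation of log2 CPM (pseudocount 0.5), and pairs of genes by permutation tests with 100000 resamples (scipy 1.17.1). The study names limma-voom, which was run here (limma 3.58.1) as an alternative, as was DESeq2 1.42.0. Other alternatives changed the normalization, the filter, the covariates and the mice included, and those on the length and GC trend and on the libraries numbered 1 to 5 were chosen after seeing the data. The fits were first tested on simulated data. No pair of libraries within a group agreed within sampling noise (lowest chi-square per degree of freedom 4.93). The named genes are the 6 genes, the 3 most similar to each by centred Pearson r, overlapping genes, the covariate Ttr, and in each list those called or, where none was, at most the 3 with the lowest p. The members and lists were chosen with earlier results of these data known. Promoter windows are from RefSeq.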

Additional observations from a re-analysis of the deposited data

Results flagged for a closer look

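Il34 in CTRL replicate 3, at 4.58 log2 CPM, lay far from the other 6 CTRL mice, of which the lowest was 5.32 and the highest 5.72. The gap made up 0.648 of the range of the 7 mice, above the critical value of 0.568 in Dixon's test. Runx1 in the same library, at 3.46 log2 CPM, was far above the other CTRL mice, which ran from 2.17 to 2.54, and its gap made up 0.711 of the range. In all, 24 sets of values were checked in this way and 2 were far from their group, where chance alone gives about 1 in 20. Both belong to CTRL replicate 3, the library in which long transcripts were relatively high. With the length and GC trend removed, the log2 fold change between the groups was 0.12 for Il34 and -0.20 for Runx1. The part of transcript length in the 2 outlying values was not tested beyond that.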

How the results depend on the processing

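The Csf1r difference kept its direction in all 24 alternative fits, from -0.57 to -0.15 on the log2 scale, and its adjusted p ran from 0.000708 (DESeq2) to 1.00, with 0.00234 as the lowest from edgeR. It was called under DESeq2, limma-voom, library totals without TMM, both filters on low counts, age as a covariate and the length and GC trend removal. It was not called, leaving 0 of the 6 genes called, with Ttr as a covariate (-0.57, adjusted p = 0.170), with the microglial marker mean as a covariate (-0.15, adjusted p = 1.00), in the 14-month mice (-0.31, adjusted p = 0.426) and in the 10 libraries numbered 1 to 5 (-0.49, adjusted p = 0.0739). Leaving out single libraries gave -0.54 to -0.43 for Csf1r, with 0 or 1 of the 6 genes called. In 7 of 12 such fits the call was lost, and the cause was not tested. With the marker covariate Csf1 turned to 0.10, Spi1 to 0.22 and Irf8 to 0.080. In the 14-month mice Spi1 turned to 0.040 in edgeR and to 0.068 in log2 CPM, Csf1 to 0.014, Csf1r was -0.28 (exact permutation p = 0.0714), Irf8 -0.16 (exact permutation p = 0.339) and Il34 relative to the markers 0.66 (exact permutation p = 0.0893). Csf1r relative to the markers turned to -0.041, -0.0021 and -0.0036 without CTRL replicate 3, CTRL replicate 4 and DPAn-6 replicate 3, and ran from -0.041 to 0.048 over all libraries left out in turn. Irf8 in log2 CPM ran from -0.46 to -0.27 when single libraries were left out. Of the 15 centred pairs 0 passed over all mice, and 0 to 5 when single libraries were left out, with 5 without CTRL replicate 3. The age interaction under limma-voom had unadjusted p from 0.0146 to 0.0338 for Csf1r, Spi1, Csf1 and Irf8, and an adjusted p of at least 0.909. Over all genes the count called was 243, and it was 696 under DESeq2, 529 with the length and GC trend removed, 17 with Ttr, 0 with the markers, 9 in the 14-month mice and 64 (without DPAn-6 replicate 3) to 953 (without CTRL replicate 3) when single libraries were left out.

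Replicate numbers are shared by the groups, and the deviations of same-numbered libraries correlated between -0.12 and 0.22. For number 4 the own-number value (0.22) was above the highest with another number (0.19). For numbers 1, 2, 3 and 5 it was below. A pairing that leaves no trace in these deviations would not be seen, so whether the numbers pair the mice was not settled. With the replicate number as a block, Csf1r was -0.48 (adjusted p = 0.103), 0 of the 6 genes were called and 69 genes were called in all, against 148 in the same libraries without the block. The counts of Runx1, 76 to 168 per library, were the lowest of the 6 genes.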
